A study of Mus musculus with 6 samples.

Results

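The genes for fibroblast growth factors, Hgf and Igf1 were taken as every gene symbol of the wound healing PCR array that begins with Fgf, together with Hgf and Igf1. This gave 5 genes, Fgf2, Fgf7, Fgf10, Hgf and Igf1, of the 84 wound healing genes and 89 gene assays on the array. The cells were primary dermal fibroblasts from neonatal C57BL/6 mice, used at passages 3 to 5 and scratched as a monolayer. The control group (3 cultures) received simple DMEM, and the DS group (3 cultures) received 2,4-DS, a dermatan sulfate of the ascidian Styela plicata, at 50 µg/mL. Mitomycin C, which blocks cell division, was present in both groups, so the cultures model a wound without proliferation. The time in DS is uncertain: the treatment label reads 24 h, the protocol label 72 h, and the study's methods differ from both. The study's results give its counts of changed genes for day 1 post-wounding. The protocol label also lists doses of 10 to 1000 µg/mL, and the dose given here is that of the methods. Each culture was measured on 1 array of 96 wells. Values are threshold cycles (CT), which come earlier when a well starts with more template, and a CT over 36 was treated as not detected.

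These growth factors are secreted proteins that act through receptor tyrosine kinases. Dermal fibroblasts are a known source of several of them for the overlying epidermis. Fgf7, also called keratinocyte growth factor, and Fgf10 bind the epithelial form of an FGF receptor, whereas Fgf2 acts on fibroblasts and endothelial cells as well. Hgf is the ligand of Met and is secreted as an inactive precursor, and Igf1 binds its own receptor and is held by binding proteins. Fibroblast growth factors and Hgf bind sulfated glycosaminoglycans of the cell surface and matrix.

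The array as a whole differed between the groups. Of the 89 gene assays, 26, 25 and 25 had a CT at or under 36 in control arrays 1, 2 and 3, and 60, 60 and 58 did in DS arrays 1, 2 and 3. The fibroblast markers Col1a1, Col1a2 and Col3a1, genes of the main dermal collagens, gave no CT in any control array, and 3 of 3 were detected in each DS array. These 3 markers of the labelled cell type were therefore not detected in the control arrays. The housekeeping genes Actb, B2m, Gapdh and Gusb gave no CT there either, so a missing CT does not show that an RNA was absent. Col5a2, a fibrillar collagen gene looked up after values were seen, was detected in every array. Its CT was 23.76, 24.05 and 23.31 in control and 21.77, 21.63 and 21.17 in DS arrays 1, 2 and 3. The related collagen genes Col5a1 and Col5a3, also looked up after values were seen, were not detected in any control array. Col5a1 gave no CT there, and Col5a3 gave a CT over the cutoff in each. In the DS arrays Col5a1 stayed over the cutoff and Col5a3 was detected in each. Col1a2 had a CT of 23.41, 22.91 and 22.87 in DS arrays 1, 2 and 3. Of the myofibroblast markers, Tagln was detected in every DS array and in no control array, and Acta2 gave no CT in any array. Epithelial Itgb6, with a mean CT of 9.81 ± 0.217 (SD, n = 3), lymphocyte Cd40lg and myeloid Ctsg and Il1b were likewise detected in the DS arrays and not in the control arrays. The CT of Ctsg, 34.04, 35.52 and 34.79 in DS arrays 1, 2 and 3, came after that of the genomic DNA control in each array. Cdh1 stayed over the cutoff, and Il2 and Tnf gave no CT. Across the 17 gene assays at or under 36 in all 6 arrays, the CT of arrays of the same group correlated at 0.978 to 0.995, and the CT of a control array with that of a DS array at 0.0606 to 0.117, a description in which assays are not replicates. Each CT was assigned to its gene by the well order of the deposited table, and whether that order holds for the arrays of both groups cannot be told from these values, so every difference between the groups below carries that limit. The part of these markers in the values below was not tested, and fewer cells of a type and less RNA per cell cannot be told apart in these samples.

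With Hsp90ab1, Ccl7 and Egfr as normalizing genes, 4 of the 5 growth factor genes rose in DS (Fgf7, Fgf2, Fgf10 and Igf1) and Hgf fell, but with the 5 housekeeping genes Fgf10 and Igf1 were lower in DS, and with Actb and Gapdh Fgf2, Fgf10 and Igf1 were lower and Fgf7 was at −0.19 on the log2 scale. Over the 64 tested genes of the array, 71.9% were called higher in DS and 20.3% lower by limma, so 4 higher and 1 lower among 5 genes is close to the array's own split. The control and DS values did not overlap for 5 of the 5 genes, against 93.8% of the tested genes. The median log2 fold change was 3.97 over the 5 genes, of which 2 are bounds, and 4.40 over the 64, of which 46 are bounds. Fgf7 entered the tested genes only through its DS arrays and Hgf only through its control arrays, so a difference in each followed from that entry.

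**Figure D1:**
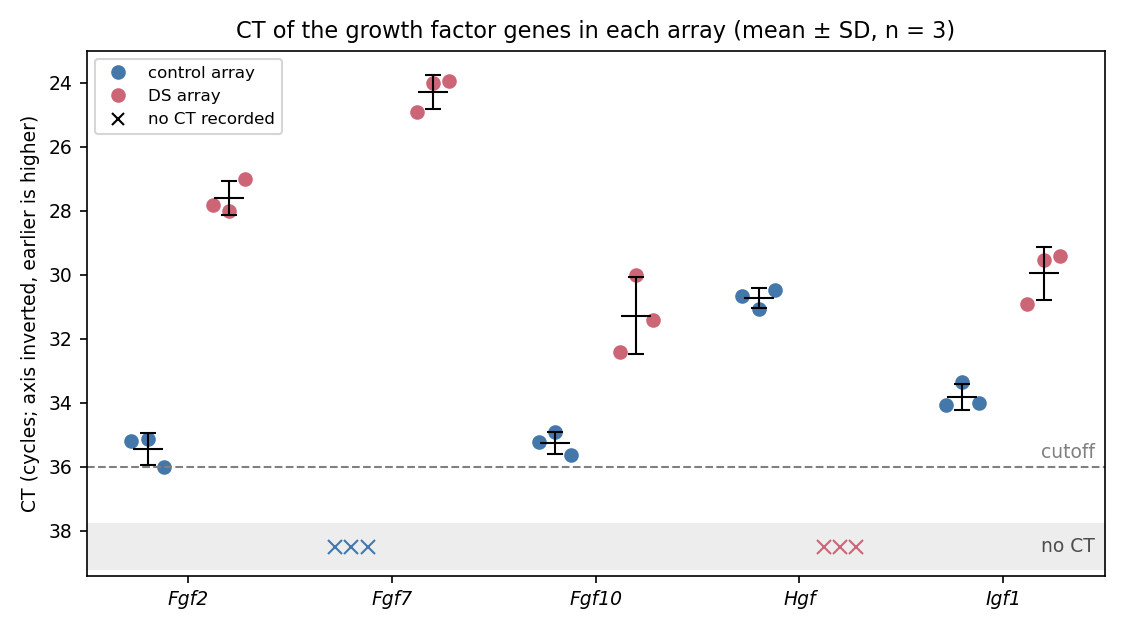
CT of the growth factor genes in each control and DS array, on an inverted axis so that more template is higher; bars give the mean ± SD of groups with 3 recorded CT, the dashed line is the cutoff of 36, and crosses mark wells without a CT. Fgf7 has no CT in the control arrays and Hgf none in the DS arrays, and the points of the other genes do not overlap between groups.

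Fgf7, the paracrine signal from fibroblasts to keratinocytes, was undetected in control arrays 1, 2 and 3 and had a CT of 24.91, 24.02 and 23.93 in DS arrays 1, 2 and 3. The DS arrays lay close together, at a mean of 24.3 ± 0.542 (SD, n = 3), and the groups were fully apart. Set against the cutoff, Fgf7 was at least 3335-fold higher in DS. Its log2 fold change was at least 11.70 (SE 0.35, limma adjusted p = 5.62e-09). With Actb and Gapdh as normalizing genes the value was −0.19 (adjusted p = 0.508, with a range of 5.53e-54 to 0.508 over all alternatives).

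Fgf10, the other ligand of the epithelial receptor form, was detected in every array. Its CT was 35.23, 34.92 and 35.62 in control arrays 1, 2 and 3, and 32.40, 30.00 and 31.42 in DS arrays 1, 2 and 3. All control values lay within about a cycle of the cutoff, and the DS arrays were spread more widely (SD 1.21, n = 3) than the control arrays (SD 0.351, n = 3), with DS array 2 the earliest. Fgf10 was 15.7-fold higher in DS, a log2 fold change of 3.97 (SE 0.59, limma adjusted p = 0.000197). Without DS array 2 the log2 fold change was 3.34. The methods' own test, which treats each gene alone, did not call Fgf10, with or without adjustment. With 33 as the cutoff, chosen after seeing the data to lie before the genomic DNA control, the log2 fold change was at least 1.72.

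Fgf2, a mitogen for fibroblasts and endothelial cells, had a CT of 35.19, 35.12 and 36.01 in control arrays 1, 2 and 3, and 27.82, 28.01 and 27.00 in DS arrays 1, 2 and 3. The third control value passed the cutoff by a hundredth of a cycle and was set to 36. Control arrays were all late, DS arrays all early, and the groups did not overlap. Fgf2 was 225-fold higher in DS, with a log2 fold change of 7.82 (SE 0.43, limma adjusted p = 1.93e-07). With the 5 housekeeping genes the log2 fold change was 0.19 (adjusted p = 0.652, range over alternatives 8.20e-32 to 0.652). The lowest p came with Hsp90ab1 alone, where the growth factor genes shared an SE of 0.60, so it does not reflect the spread of Fgf2 itself.

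Hgf, the ligand of Met, moved the other way. Its CT was 30.65, 31.07 and 30.46 in control arrays 1, 2 and 3, and no CT was recorded in any DS array. The control arrays agreed within an SD of 0.312 cycles (n = 3). Against the cutoff, Hgf was at least 38.9-fold lower in DS and its log2 fold change was −5.28 or lower (SE 0.29, limma adjusted p = 1.93e-07). It kept its sign under all alternatives tried that give it a value, including the median CT of genes measured in all arrays as reference, which gave −2.33 or lower. The DS CT of Hgf is substituted in each of them. Under other cutoffs, fits and left-out arrays its sign therefore followed from entry through the control arrays and adds no support.

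Igf1, which promotes survival and growth in many cell types, was detected in every array. Its CT was 34.08, 33.35 and 34.02 in control arrays 1, 2 and 3, and 30.91, 29.53 and 29.41 in DS arrays 1, 2 and 3. DS array 1 was the latest of its group, as it was for Fgf10 and Fgf7, and the groups did not overlap. Igf1 was 14.5-fold higher in DS, a log2 fold change of 3.86 (SE 0.48, limma adjusted p = 5.65e-05).

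The exact permutation test, two-sided, gave p = 0.1 for each of the 5 genes, the smallest value that 3 arrays against 3 can give. Because assays differ in efficiency, a difference in CT between genes, or between a gene and the genomic DNA control, does not measure a difference in RNA level, and such differences are given for comparison between arrays.

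**Figure D2:**
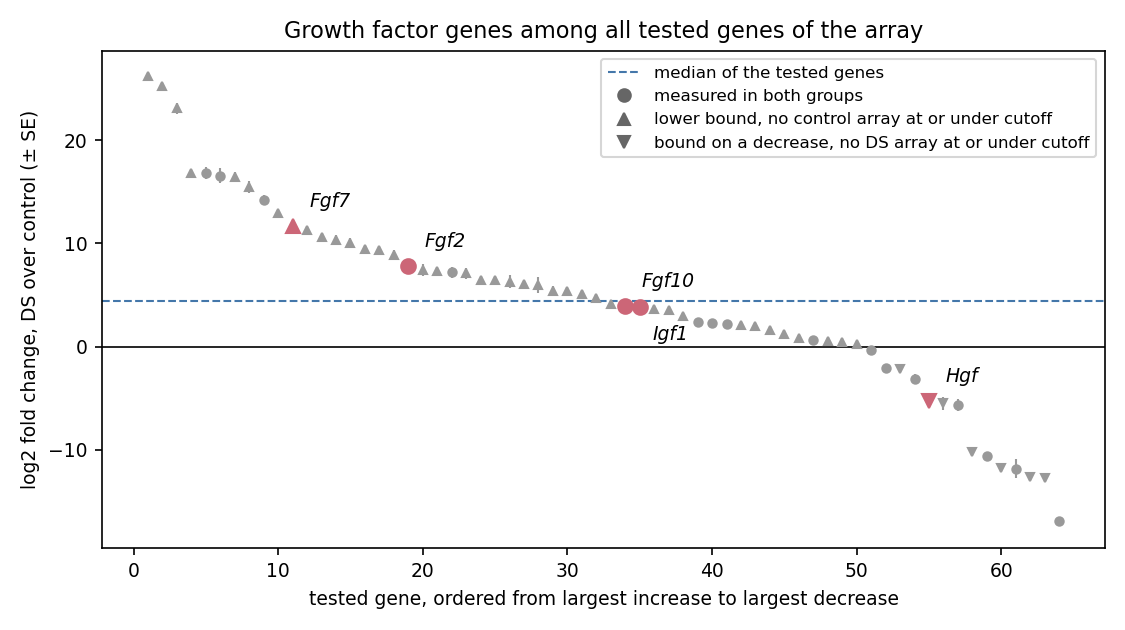
Log2 fold change (± SE) of the 64 tested genes, DS over control, in order of size, with the 5 growth factor genes in red; the order of bounds depends on the cutoff of 36. Upward triangles are lower bounds and downward triangles bounds on a decrease; Fgf10 and Igf1 sit just under the array's median of 4.40 (dashed), Fgf7 and Fgf2 above it and Hgf below 0, under the normalizing genes Hsp90ab1, Ccl7 and Egfr; with the 5 housekeeping genes Fgf10 and Igf1 are below 0, and with Actb and Gapdh all 5 are.

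Since most of the array shifted, each gene was also set against the median of the tested genes, a distance that does not change with the normalizing genes but does with the cutoff, because 46 of the 64 values are bounds. At a cutoff of 36, Fgf7 lay 7.31 log2 units above that median, Fgf2 3.42 above it, Fgf10 at −0.42, Igf1 at −0.54 and Hgf at −9.68. From a cutoff of 33 to undetermined wells at 45, the distance ranged from 5.66 to 10.50 for Fgf7 and from −24.49 to −5.32 for Hgf. Over the same settings it was −2.39 to 3.52 for Fgf2, −6.23 to −0.17 for Fgf10 and −6.35 to 0.00 for Igf1, and among genes at or under 36 in all 6 arrays Fgf10 lay at 2.54 and Igf1 at 2.43. So the place of Fgf2, Fgf10 and Igf1 relative to the array was not settled. The distances of Fgf7 and Hgf kept their sign, but each rests on a substituted CT in a whole group, so their size was not settled either. The median itself, 4.40 here, was −3.23 under the 5 housekeeping genes and −7.49 under Actb and Gapdh.

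The normalizing genes decided the sign of several values. The CT of Hsp90ab1 was 0.35 cycles later in DS (limma adjusted p = 0.35), that of Ccl7 0.317 later (adjusted p = 0.383) and that of Egfr changed by −0.697 cycles (adjusted p = 0.053). Actb, a housekeeping gene, gave no CT in the control arrays and 13.05, 11.55 and 12.01 in DS arrays 1, 2 and 3. B2m gave none in control and 22.04, 21.91 and 19.89 in DS. For a separate quality control run of the RNA, the paper reports that Actb was detected and that its variation was not statistical. Gapdh gave no CT in any array, and Gusb gave only a CT of 41.10, in DS array 3. The change in CT was −23.80 cycles or lower for Actb and −14.72 or lower for B2m, so values under these references rest on a control CT set to 36. Gapdh and Gusb were set to 36 in every array. With the 5 housekeeping genes Fgf10 was −3.65 and Igf1 −3.77, and with Actb and Gapdh Fgf2 was −4.07, Fgf10 −7.92 and Igf1 −8.03, each with the sign turned.

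**Figure D3:**
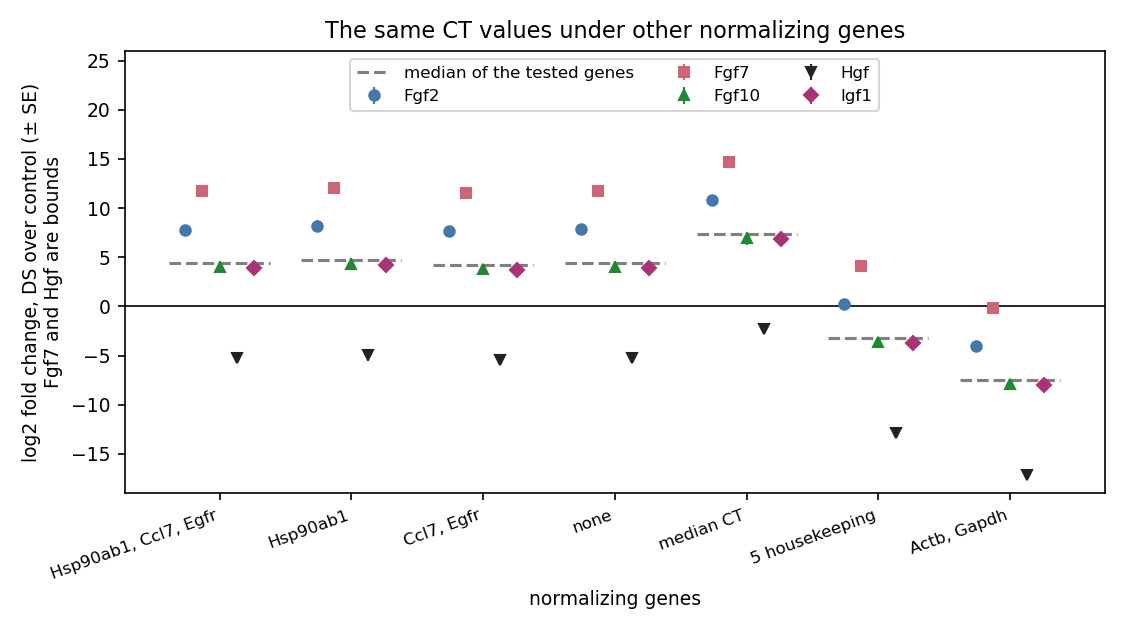
Log2 fold change (± SE), DS over control, of the 5 growth factor genes under 7 choices of normalizing genes, from the same CT values; the dashed segments give the median of the tested genes under each choice. Fgf10 and Igf1 lie near the median at this cutoff and change sign with it, Fgf2 and Fgf7 fall below 0 with Actb and Gapdh, and Hgf stays below 0. In control the CT of Fgf7, Actb and Gapdh are all set to the cutoff.

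Differences of CT within an array need no normalizing gene. CT of Fgf10 minus that of Igf1 was 1.44 ± 0.252 cycles (SD, n = 3) in control and 1.32 ± 0.783 in DS, so that it changed by −0.117 cycles, with a 95% confidence interval of −1.44 to 1.20 and an exact permutation p of 0.8. These genes were measured in all 6 arrays and a difference in their changes was not detected, though the interval allows more than a cycle either way, and without DS array 2 the change was 0.31. The change from control to DS in CT of Fgf2 minus Igf1 was −3.96 cycles (95% confidence interval −5.42 to −2.50) and that of Fgf2 minus Fgf10 was −3.84 (−6.19 to −1.49), with 1 control array at the cutoff. The change in Fgf7 minus Igf1 was −7.85 cycles or lower, in Fgf7 minus Fgf10 −7.73 or lower, and in Fgf2 minus Fgf7 at least 3.89. That of Hgf minus Igf1 was at least 9.14 cycles, and that of Fgf7 minus Hgf −17.0 or lower. The exact permutation p was 0.1, the smallest possible, for the other 9 of the 10 pairs (0.111 after Benjamini-Hochberg adjustment over the pairs), of which 7 hold a gene over the cutoff in a whole group and so rest on a substituted CT; only Fgf10 with Igf1 met the rule that both genes be at or under 36 in all 6 arrays.

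**Figure D4:**
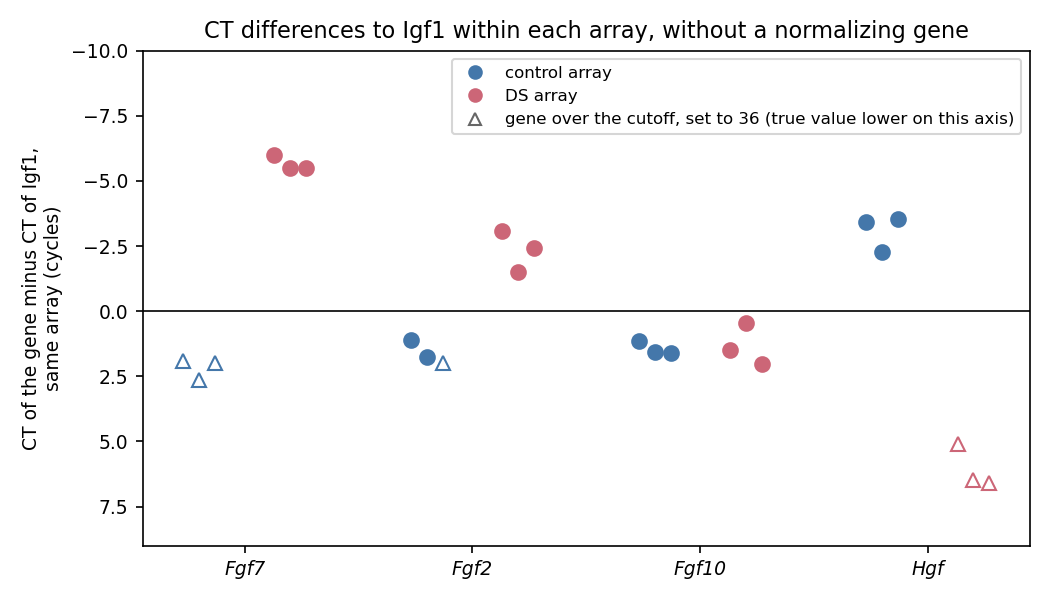
CT of Fgf7, Fgf2, Fgf10 and Hgf minus the CT of Igf1 in the same array, in cycles on an inverted axis, for 3 control and 3 DS arrays; open triangles are genes over the cutoff, set to 36. The Fgf10 points of the groups overlap, Fgf7 and Fgf2 move up in DS and Hgf moves down.

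The genomic DNA control gave no CT in the control arrays and 33.08, 34.02 and 33.78 in DS arrays 1, 2 and 3. Fgf7 preceded it by 8.17, 10.00 and 9.85 cycles in those arrays and Fgf2 by 5.26, 6.01 and 6.78. Igf1 preceded it by 2.17, 4.49 and 4.37 cycles and Fgf10 by 0.68, 4.02 and 2.36. The paper reports a DNAse step, and a separate quality control run that revealed no genomic DNA contamination. How much of the Fgf10 signal in DS array 1 comes from genomic DNA was not tested.

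For each gene, the tested genes closest in pattern were found by the root mean square difference of centred −ΔCT over the 6 arrays. A gene undetected in a whole group has the same substituted CT of 36 there as any other such gene, which brings genes such as Fgf7, Col1a1 and Il1b in control, or Hgf and Wnt5a in DS, closer by construction. Fgf10 and Igf1 were each other's nearest gene, at 0.479, against a median of 2.26 for Fgf10 and 2.15 for Igf1 over the tested genes. The next for Fgf10 was Ctnnb1 (0.719) and for Igf1 Fga (0.661). Fgf7 lay nearest to Col1a1 (0.269) and Il1b (0.557), and Fgf2 to Tgfa (0.417). Nearest to Hgf were Egf (0.907) and Wnt5a (0.947).

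The gene lists that follow are given under Hsp90ab1, Ccl7 and Egfr as normalizing genes, where 71.9% of the tested genes were called higher and 20.3% lower; under Actb and Gapdh 10 genes of the array were higher and 52 lower. Among 8 other growth factors of the array, 6 were tested, 3 were called higher and 3 lower. Of these, 4 are bounds that entered through a single group, which fixed their direction, and the median of −0.12 depends on the cutoff. Vegfa, the endothelial growth factor, fell by 11.81 (SE 0.89), and Angpt1, a ligand of the Tie receptors, was −10.20 or lower. Egf fell by 5.66 and, with Tgfa, binds Egfr; Tgfa rose by at least 7.34 and Ctgf, a matrix-associated factor, by at least 6.48. Pdgfa and Tgfb1 were not detected under the cutoff in either group. All 7 intracellular relays of growth factor receptors were undetected in control and called higher in DS, with a median of 10.37 against a control CT set to 36; Mapk3 and Stat3 rose by at least 15.47 and 16.45. Of 7 genes for surface proteolysis, 6 were tested, 5 were called higher and Plau was 0.29 or higher (adjusted p = 0.358). The tested genes of these last lists entered only through their DS arrays, so their direction followed from that entry and the counts support nothing further. Plg, which encodes plasminogen, was higher by at least 3.63. Its CT in DS arrays 1, 2 and 3 was 32.23, 33.01 and 31.84, shortly before the genomic DNA control at 33.08, 34.02 and 33.78. Plat, the tissue activator of plasminogen, was higher by at least 1.63, but its CT in DS, 34.4 ± 0.564 (SD, n = 3), came after that of the genomic DNA control in each array. Over all 64 tested genes the median was 4.40.

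Fgf7 and Hgf were each detected in a single group, and Fgf10 in both. The bases before the annotated start of these genes are shown, from the RefSeq table of GRCm38.p6 on the plus strand. Only windows whose annotated start is the first base of the gene are shown, so Fgf2 and Igf1 are not printed. The 5 genes all matched the table by accession. The windows lie upstream of the gene at chr2:126034408-126034657 for Fgf7, chr13:118714449-118714698 for Fgf10 and chr5:16553245-16553494 for Hgf, 250 bases each, read 5′ to 3′. Capitals mark matches, on either strand, to 5 motifs: the TATA box (TATAAA), the CCAAT box (its name gives the letters), the GC box (GGGCGG), the forkhead motif (TGTTTAC) and the AP-1 motif (TGACTCA), which do not overlap each other in the windows shown.
Fgf7: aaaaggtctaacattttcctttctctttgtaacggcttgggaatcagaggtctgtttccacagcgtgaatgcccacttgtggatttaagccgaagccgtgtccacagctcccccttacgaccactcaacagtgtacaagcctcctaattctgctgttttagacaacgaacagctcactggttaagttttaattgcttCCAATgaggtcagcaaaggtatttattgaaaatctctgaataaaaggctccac
Fgf10: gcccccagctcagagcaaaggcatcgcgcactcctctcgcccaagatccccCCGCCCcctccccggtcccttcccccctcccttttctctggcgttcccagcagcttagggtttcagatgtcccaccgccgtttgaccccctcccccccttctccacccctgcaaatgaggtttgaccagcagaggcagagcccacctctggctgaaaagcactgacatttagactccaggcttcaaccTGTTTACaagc
Hgf: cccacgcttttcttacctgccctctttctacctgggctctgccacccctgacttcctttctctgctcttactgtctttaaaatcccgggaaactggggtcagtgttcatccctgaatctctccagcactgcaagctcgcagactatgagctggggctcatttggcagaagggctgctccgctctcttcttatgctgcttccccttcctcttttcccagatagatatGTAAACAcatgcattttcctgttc
Fgf7 held CCAAT, which 33.8% of all 32851 promoters hold in a window of this length, and so did Igf1. Fgf10 and Fgf2 held GGGCGG (32.7% of promoters). Fgf10 and Hgf held the forkhead letters (3.17%), and the window of another annotated start of Hgf held none of the motifs. None of the 5 genes held TATAAA (12.4%) or the AP-1 letters (4.46%) in this window. G and C made up 43.6% of the Fgf7 window, 61.2% of Fgf10, 50.8% of Hgf, 62.4% of Fgf2 and 52.8% of Igf1, against a median of 52.4% over all promoters. A match of letters is a description, and binding was not measured here.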

How the data were processed

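Total RNA from 6 cultures, 3 per group, was measured by SYBR Green PCR arrays, 1 per culture. The authors deposited unnormalized CT values per well. Their other deposited values are a ratio, 2 to the power of minus the group's mean ΔCT, without a spread. Recomputed from the CT with a geometric reference mean, these ratios differed from the deposited ratio by at most 0.00242%. Here missing CT and those past 36 were replaced by 36, and −ΔCT was taken against the arithmetic mean CT of Egfr, Ccl7 and Hsp90ab1 in each array. A limma 3.58.1 model (R 4.3.3) was fitted to the 64 wound healing genes that reached the cutoff in any array, with two-sided p, Benjamini-Hochberg adjustment and a threshold of 0.05. Where a whole group was over the cutoff the fold change is a bound against a CT of 36, and its SE and p treat the cutoff as measured. Precision is limited by the number of arrays.

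The genes and lists were chosen with earlier results of these data known. Named genes were the 5 genes, the listed other growth factors, intracellular relays, surface proteolysis genes and cell type markers, the 2 nearest genes of each, and the normalizing, housekeeping and control assays. Alternatives were other normalizing genes, cutoffs, filters and tests, the deposited ratios, a replicate block and leaving out each array; a cutoff of 33 and Hsp90ab1 with Ccl7 were added after seeing the data. The CT software and cycling conditions are those of the study's methods. Motifs were chosen after values were seen. Counts include a few listed or nearest genes whose own values are not reported here.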

Additional observations from a re-analysis of the deposited data

Results flagged for a closer look

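Assays outside the gene measurements gave a signal in one group and not in the other. In the DS arrays the genomic DNA control averaged a CT of 33.6, with an SD of 0.488 over 3 arrays, while control arrays had none. Of the 3 reverse transcription control wells, H07 averaged 29.6 in DS (SD 0.615 over 3 arrays) and was undetected in control. Well H08 had a mean CT of 22.5 ± 0.699 (SD, n = 3) in control, and in DS gave 39.69, none and 41.00 in arrays 1, 2 and 3. Well H09 averaged 32.1 in DS (SD 0.617 over 3 arrays), with a single CT of 38.03 in control. The reverse transcription wells differed in both directions although they hold the same kind of assay, and all positive PCR control wells were without a CT in both groups. Whether the deposited well order holds for the arrays of both groups cannot be told from these values. Their part in the values of the growth factor genes was not tested.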

How the results depend on the processing

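Of the tested alternatives to the 5 fold changes, 103 values kept direction and side of the threshold, 3 lost the call, 5 turned and were called, and 1 (Fgf7 with Actb and Gapdh) turned and lost the call; 5 values from the deposited ratios, without a test, kept their direction. With the 5 housekeeping genes, Fgf2 was 0.19 (adjusted p = 0.652), Fgf10 −3.65 and Igf1 −3.77; calls were 17 higher and 39 lower over the array and 1 and 3 among the growth factor genes. With Actb and Gapdh, Fgf2 was −4.07, Fgf7 −0.19, Fgf10 −7.92 and Igf1 −8.03; calls were 10 higher and 52 lower, and 0 and 4. In both settings Actb, without a CT in control, and Gapdh, set to 36 in every array, enter the reference. With genes at or under 36 in all 6 arrays only, 16 genes were tested, 8 rose and 6 fell, 2 and 0 among the growth factor genes, since fewer genes were tested. The methods' own test gave 4.27 for Fgf10, which it did not call with or without adjustment. It called 36 genes higher and 9 lower without adjustment, and 27 higher and 9 lower after adjustment. The cause was not tested. Leaving out each array gave 7.47 to 8.02 for Fgf2, 11.52 to 12.02 for Fgf7, 3.34 to 4.54 for Fgf10, −5.43 to −5.21 for Hgf and 3.58 to 4.34 for Igf1, 44 to 46 genes called higher and 13 lower, and a change of −0.46 to 0.31 in CT of Fgf10 minus Igf1. Deviations of −ΔCT from the group means correlated between same-numbered arrays at 0.0832, 0.0506 and −0.199 over 17 genes. Between differently numbered arrays the correlations ran from −0.337 to 0.358, so this check cannot tell whether the numbers pair the cultures. With the replicate block 45 genes were called higher and 13 lower, and Fgf2 was 7.82. Bounds moved with the cutoff: at 40 Fgf7 was at least 15.70 and Hgf −9.28 or lower, and with undetermined wells at 45 they were 20.70 and −14.28. With 35 Fgf7 was at least 10.70 and Hgf −4.28 or lower. With 33, added after seeing the data, Fgf2 was at least 5.38, Fgf7 8.70, Fgf10 1.72 and Igf1 3.04, and Hgf −2.28 or lower, with 38 genes called higher and 12 lower. Late CT near the cutoff in control limits Fgf2 and Fgf10.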

Other observations

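Of 300 CT values recorded over the 6 arrays, 23 (7.67%) were whole numbers and 22 (7.33%) ended in 1 or 2 hundredths. Whole numbers were 0, 3 and 5 in control arrays 1, 2 and 3, and 1, 7 and 7 in DS arrays 1, 2 and 3. They include Fgf10 in DS array 2 (30.00) and Fgf2 in DS array 3 (27.00). The CT of Fgf2 in control array 3, 36.01, is 1 of 6 values that lie from the cutoff to 3 hundredths of a cycle above it.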
